A study of Mus musculus with 4 samples.

Results

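The water channel genes Aqp1, Aqp2, Aqp3, Aqp4 and Aqp6 and the vasopressin receptor gene Avpr2 are described here in collecting duct cells of newborn mice that lacked or kept the (pro)renin receptor. Members were the non-control probes of the array whose RefSeq accession maps to one of these 6 symbols. The 6 are among 33390 genes or unnamed targets on the array and came to 8 of its 41174 probes, with 3 probes for Aqp4 and 1 for each other gene. All 8 were well above background, by the scanner software's own flag, in Cy5 on 4 of 4 arrays and in Cy3 on each of the 3 arrays with Cy3 signal, so none was lost to the filter on dim probes.

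RNA came from cells carrying green fluorescent protein that were sorted at postnatal day 1, pooled, and labelled in reactions of 0.5 µg of total RNA. Knockout cells carried the HoxB7CreEGFP transgene with a floxed receptor gene on both alleles (PRR flox/flox), and wild-type cells carried the CreEGFP transgene with PRR+/+ alleles, so the control cells expressed Cre as well. The HoxB7 promoter is active in the ureteric bud and the collecting ducts it forms. On 2 two-colour arrays, KO_vs_WT replicates 1 and 2, knockout RNA was in Cy5 and wild-type pool 1 or pool 2 in Cy3. On the other 2 arrays, WT_self replicates 1 and 2, pool 1 or pool 2 was in both dyes. Groups follow the source named for each channel. The sample titles name the genotypes the other way round, and every direction between genotypes would turn if the titles were right. The descriptions give the same genotypes as the sources but swap the pool numbers of the self arrays, so what is called pool 1 and pool 2 in Cy5 rests on the sources. No label says whether the knockout arrays carried RNA of separate animals or of 1 pool, and p-values cover no more than the differences among the arrays, which may be technical.

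On KO_vs_WT replicate 1 the Cy3 channel, labelled wild type, was almost empty, with 28 probes well above background against 14936 to 18574 in Cy3 of the other arrays and 18424 to 22713 in Cy5. The main comparison therefore set Cy5 of the knockout arrays against Cy5 of the self arrays. Atp6ap2, which encodes the receptor, had Cy5 levels of 8.08 and 7.71 in knockout and 8.38 and 8.51 in wild type on the log2 scale, a difference of -0.55 ± 0.17 (SE, n = 2 arrays per genotype, limma adjusted p = 0.806). All 9 ureteric lineage markers were measurable, and the collecting duct origin of the cells is seen in Hoxb7, at Cy5 levels of 11.36 and 11.50 in knockout and 11.67 and 11.15 in wild type. The cells were measured in bulk, so fewer cells of a type and less RNA per cell cannot be told apart.

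Principal cells of the collecting duct take up water under the control of vasopressin. The hormone binds the receptor encoded by Avpr2, which acts through a stimulatory G protein, adenylyl cyclase, cyclic AMP and protein kinase A to move vesicles carrying aquaporin 2 to the apical membrane and to raise transcription of Aqp2. Water leaves the cell on the basolateral side through aquaporins 3 and 4. Aquaporin 1 belongs to the proximal tubule and the descending thin limb, and also to vessels and red blood cells, and aquaporin 6 to vesicles of intercalated cells, the acid-base cells of the same duct.

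The 250 bases upstream of 3 of the genes are shown because Aqp2, Aqp3 and Aqp6 were the members with higher levels in knockout. Sequences are those of RefSeq on GRCm38.p6, whose table held 5 of the 6 members, and are written 5′ to 3′ on the strand of the gene. The window of Aqp2 is chr15:99578806-99579055 on the plus strand, that of Aqp3 is chr4:41098184-41098433 on the minus strand, and that of Aqp6 is chr15:99600950-99601199 on the plus strand. Capitals mark the matches, on either strand, to TGACGT, a short form of the cyclic AMP response element, to GATAAG, bound by GATA factors, and to TATAA, the TATA box.
Aqp2: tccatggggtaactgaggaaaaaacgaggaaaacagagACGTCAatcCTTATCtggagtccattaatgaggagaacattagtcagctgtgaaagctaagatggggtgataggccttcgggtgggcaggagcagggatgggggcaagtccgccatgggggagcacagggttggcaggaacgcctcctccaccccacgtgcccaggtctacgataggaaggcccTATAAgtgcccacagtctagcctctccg
Aqp3: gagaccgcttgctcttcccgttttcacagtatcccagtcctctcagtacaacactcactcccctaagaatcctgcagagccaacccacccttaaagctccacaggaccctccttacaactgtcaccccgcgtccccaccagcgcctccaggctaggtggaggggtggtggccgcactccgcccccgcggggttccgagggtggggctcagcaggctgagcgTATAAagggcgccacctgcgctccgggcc
Aqp6: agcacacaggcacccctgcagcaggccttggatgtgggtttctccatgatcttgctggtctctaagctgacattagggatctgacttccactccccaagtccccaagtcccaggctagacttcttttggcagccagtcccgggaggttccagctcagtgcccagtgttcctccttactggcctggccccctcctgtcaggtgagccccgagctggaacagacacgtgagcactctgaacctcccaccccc

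The Aqp2 window held TGACGT on the minus strand, 212 to 207 bases before the start, GATAAG on the minus strand at 203 to 198 bases, and TATAA on the plus strand at 28 to 24 bases, with no overlap between them. Of all 32841 windows of this length, 6.47% held TGACGT, 6.55% held GATAAG and 22.8% held TATAA. The complete palindrome TGACGTCA, which contains TGACGT, was in 1.55% of windows and in that of none of the 5 members. The Aqp3 window held TATAA at 29 to 25 bases and neither of the other marked letters, and the Aqp6 window held none of them. Searched also on both strands, the E-box CACGTG was in the Aqp2 and Aqp6 windows and in 6.02% of all, the steroid receptor motif AGAACA in those of Aqp2 and Avpr2 and in 16.1% of all, and the NFAT5 core TGGAAA in none of the 5 and in 18.6% of all. These matches are descriptions of letters and not binding sites. In the same annotation Aqp2 and Aqp6 lie on chromosome 15 with Aqp5 as the protein-coding gene next to both, Aqp3 lies next to Aqp7 on chromosome 4, Aqp1 is on chromosome 6, Aqp4 on chromosome 18, and Avpr2 is between L1cam and Arhgap4 on the X chromosome.

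Aqp2, the vasopressin-regulated channel of the apical membrane, read 12.34 and 12.57 in knockout (KO_vs_WT replicates 1 and 2) and 11.93 and 11.50 in wild-type pools 1 and 2 (the self arrays), in log2 Cy5 level after background correction and quantile normalization. Both knockout arrays stood above both wild-type pools. In scanner units before any scaling, net Cy5 signal was 7144 and 5096.5 in knockout and 3206.5 and 2815 in wild type. These units do not allow for the brightness of an array, and KO_vs_WT replicate 1 had the most probes well above background in Cy5, 22713. The difference was 0.74 ± 0.19 (SE, n = 2 arrays per genotype; 95% interval 0.23 to 1.24), or 1.67-fold with an interval of 1.18 to 2.36, and it did not pass the test over all genes (limma unadjusted p = 0.0136, adjusted p = 0.806). Knockout stood 1.43-fold above pool 1 and 1.94-fold above pool 2. With the software's processed signals scaled to the 75th percentile the sign turned, to -0.35, where Aqp2 read 12.41 and 14.78 in knockout and 13.94 in each pool.

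Aqp3, the glycerol-permeable channel through which water leaves the principal cell, read 12.43 and 12.71 in knockout and 12.25 and 12.06 in wild-type pools 1 and 2. The groups did not overlap. The difference was 0.41 ± 0.15 (SE, n = 2 arrays per genotype; 95% interval 0.0097 to 0.81), a 1.33-fold higher level (limma unadjusted p = 0.0465, adjusted p = 0.806). It amounted to 1.25-fold over pool 1 and 1.42-fold over pool 2. With processed signals scaled to the 75th percentile Aqp3 also changed sign, to -0.70, with 12.73 and 15.19 in knockout and 14.55 and 14.77 in wild type. In both genes KO_vs_WT replicate 1 alone lay below the wild-type arrays in that setting. The width from the 5th to the 95th percentile of processed Cy5 signal, on the log2 scale, was 5.51 on that array and 7.81 to 8.04 on the others. In the normexp signal of the main setting, before quantile normalization, the narrow array was WT_self replicate 2, at 2.90 against 4.00 to 4.61. Settings added after seeing the data gave 0.74 and 0.53 for Aqp2 and Aqp3 with processed signals under quantile normalization. On the 75th percentile scale without KO_vs_WT replicate 1 they gave 0.84 and 0.53.

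Aqp4, the other basolateral water channel of the principal cell, was measured by 3 probes. The brightest, A_51_P419319, read 8.35 and 8.37 in knockout and 8.48 and 8.50 in wild type, a difference of -0.12 ± 0.11 (SE, n = 2 arrays per genotype; 95% interval -0.41 to 0.16; limma adjusted p = 0.817). Its net Cy5 signal before scaling overlapped, at 394 and 225.5 in knockout and 251.5 and 242.5 in wild type. Probe A_52_P25710 read 7.83 and 7.73 in knockout and 7.88 and 7.66 in wild type, and probe A_52_P625527 read 7.83 and 7.57 in knockout and 7.61 and 7.63 in wild type. The genotypes overlapped in both, with differences of 0.013 and 0.083 (adjusted p = 0.985 and 0.891 in a limma fit over all probes). The 3 probes differed in sign, with intervals that each spanned 0, and the interval of the brightest leaves room for a level between 0.755-fold and 1.12-fold of wild type.

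Aqp6, the intercalated cell channel, read 8.06 and 8.15 in knockout and 7.85 and 7.07 in wild-type pools 1 and 2. The knockout values were close together while the wild-type pools differed, pool 2 being the lower. The difference was 0.64 ± 0.28 (SE, n = 2 arrays per genotype; 95% interval -0.088 to 1.37; limma adjusted p = 0.806). Against pool 1 the level was 1.19-fold and against pool 2 it was 2.05-fold. Net Cy5 signal was near the background on WT_self replicate 2, at 44 scanner units against 144 on WT_self replicate 1 and 306.5 and 183.5 in knockout, although the software still called that spot well above background.

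Aqp1, the water channel of the proximal tubule and thin limb, differed more between the wild-type pools than between the genotypes, as did Aqp6. Aqp1 read 6.93 and 7.14 in knockout, 7.33 in pool 1 and 9.52 in pool 2. Net Cy5 signal was 89 and 57 in knockout, 80.5 in pool 1 and 597.5 in pool 2. Knockout was 0.814 of pool 1 and 0.178 of pool 2, and the difference from both was -1.39 ± 0.72 (SE, n = 2 arrays per genotype; 95% interval -3.27 to 0.49; limma adjusted p = 0.806).

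Avpr2, the vasopressin receptor gene, read 7.86 and 7.88 in knockout and 8.15 and 8.03 in wild type. Both knockout arrays stood below both pools at that scale. Net Cy5 signal before scaling overlapped, at 254.5 and 142 in knockout and 191 and 151.5 in wild type. The difference of -0.22 ± 0.12 (SE, n = 2 arrays per genotype; 95% interval -0.52 to 0.085; limma adjusted p = 0.806) put the level at 0.827 of pool 1 and 0.896 of pool 2. The hormone's receptor and its target channel Aqp2 stood on opposite sides of wild type in this scaling, but not in every setting. With processed signals at the 75th percentile both were lower in knockout, Aqp2 at -0.35 and Avpr2 at -0.48. Under median centring both were higher, at 1.24 and 0.21. Centring each array on its median put the median of all genes at 0.33, and Aqp4 at 0.37 and Avpr2 at 0.21 changed sign. Relative to that median Avpr2 stood at -0.12 and Aqp4 at 0.036, while Aqp2, Aqp3 and Aqp6 stood at 0.91, 0.59 and 0.61 and Aqp1 at -1.36.

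**Figure D1:**
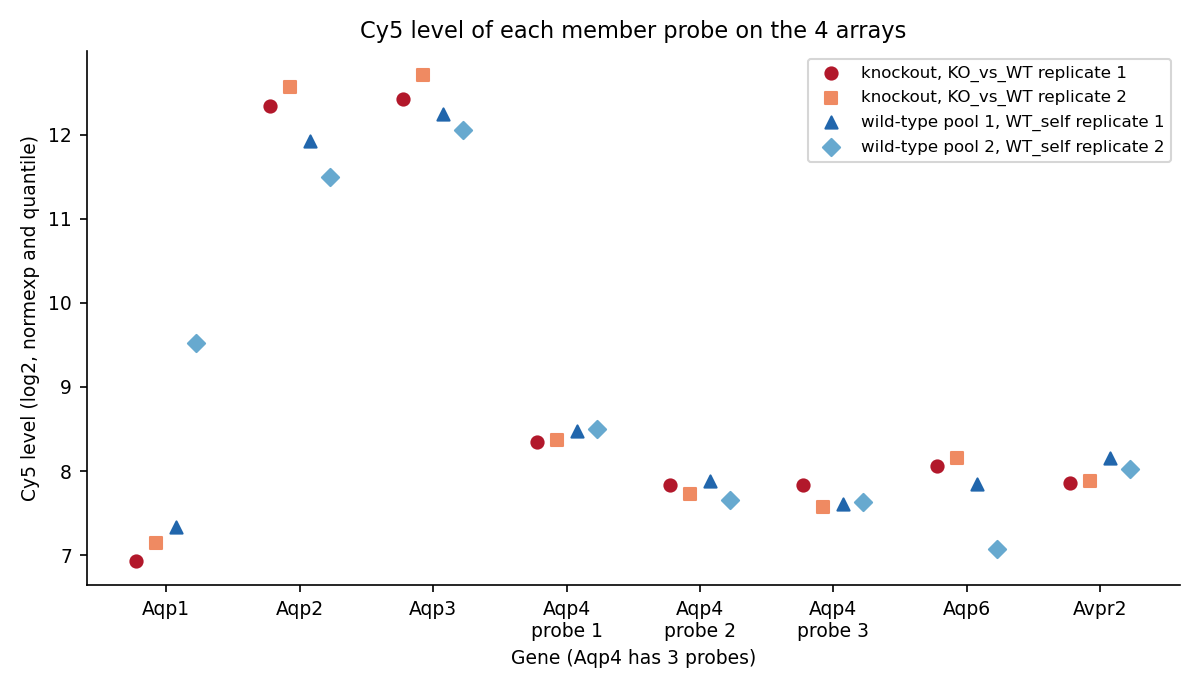
Cy5 level on the log2 scale of each of the 8 member probes, with 1 point per array, for the knockout arrays and for the wild-type pools on the self arrays. In this scaling Aqp2 and Aqp3 lie above both pools on each knockout array, a sign that turned with processed signals at the 75th percentile, and Aqp1 in pool 2, at 9.52, stands far above the other arrays. Heights of different probes are not comparable with each other.

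Over the 6 genes, 3 lay above and 3 below every wild-type array on each of the knockout arrays. Among all 16043 genes tested, 21.9% were separated upwards and 17.7% downwards, 39.6% in all. Of the 6 members, 0 passed at an adjusted p under 0.05 in limma, as did 0% of all genes, and 2, Aqp2 and Aqp3, had an unadjusted p under 0.05, as did 664 genes or 4.14% of all. The median difference of the 6 was 0.15 beside 0.022 over all genes. By size alone, 0.617% of genes had a larger absolute difference than Aqp1, 2.39% than Aqp2, 3.30% than Aqp6, 8.82% than Aqp3, 28.6% than Avpr2 and 52.5% than Aqp4.

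Leaving out WT_self replicate 1, so that knockout was set against pool 2 alone, Aqp1 (-2.49, limma adjusted p = 1.02e-04), Aqp2 (0.95, adjusted p = 0.00370), Aqp6 (1.04, adjusted p = 0.00136) and Aqp3 (0.51, adjusted p = 0.0395) passed. In that fit 27.1% of all genes passed, and its spread rests on the 2 knockout arrays alone, with the lone wild-type array assumed to vary like them. Leaving out WT_self replicate 2 instead, none of the 6 passed, and the differences from pool 1 were 0.52 for Aqp2, 0.32 for Aqp3, 0.25 for Aqp6 and -0.30 for Aqp1.

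**Figure D2:**
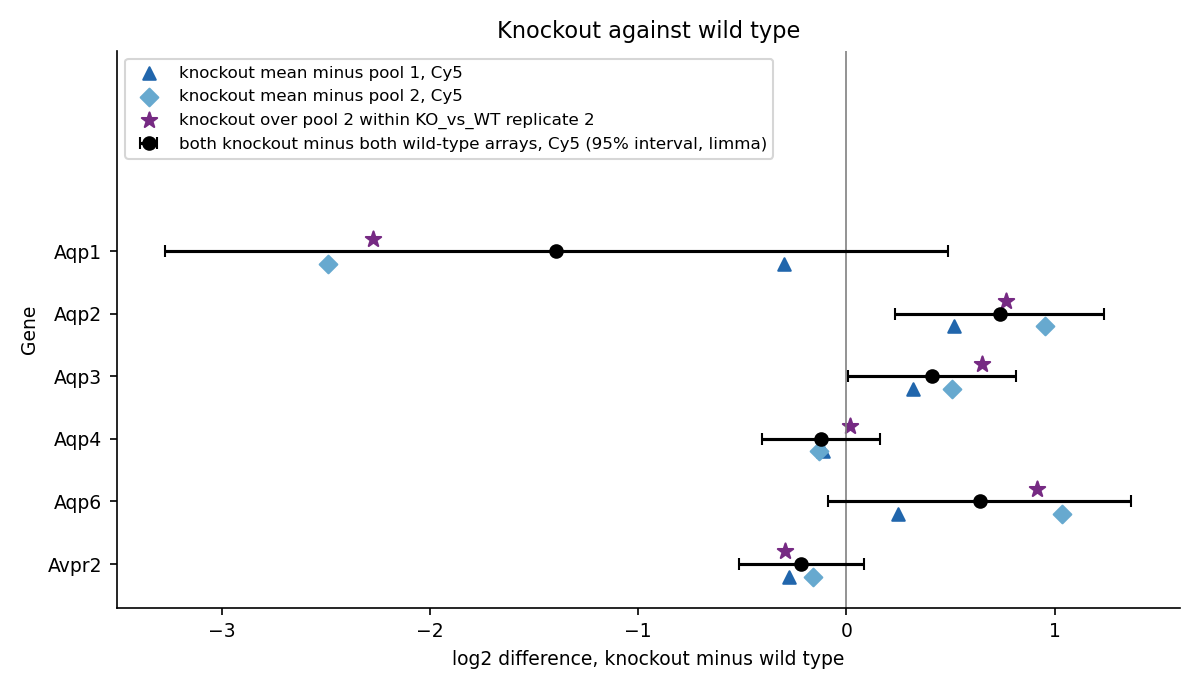
Difference between knockout and wild type on the log2 scale for the 6 genes. Black points are the Cy5 difference with its 95% interval from limma (n = 2 arrays per genotype), triangles and diamonds set the knockout mean against pool 1 and pool 2, and stars are the ratio within KO_vs_WT replicate 2. The intervals of Aqp2 and Aqp3 lie above 0, at 0.23 to 1.24 and 0.0097 to 0.81, and the triangle and diamond of Aqp1 are the farthest apart.

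KO_vs_WT replicate 2 carried knockout and pool 2 on the same spots and gives another view of that pair from 1 array, with no test. It is not independent of the main comparison, with which it shares the Cy5 readings of this array and of the self arrays. The log2 ratio of Cy5 over Cy3 of each gene was taken relative to its mean ratio on the self arrays, where both dyes held the same RNA. Aqp2 had a ratio of 0.82 there and of 0.22 and -0.099 on the self arrays, which gives 0.77, or 1.70-fold higher in knockout. Aqp3 had 0.62 against -0.077 and 0.0039 and came to 0.65, or 1.57-fold. Aqp6 came to 0.92, or 1.89-fold, with self ratios of -0.0096 and 0.010. Aqp1 came to -2.27, or 0.207 of pool 2. With the deposited ratio, taken as log2, Aqp6 was at 1.87 and Aqp1 at -3.64.

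Avpr2 stood at -0.30, or 0.814 of pool 2, with self ratios of 0.064 and -0.016. The brightest Aqp4 probe stood at 0.017, and its other probes at 0.23 and -0.11. Of the 6 genes, 3 were at least 1.5-fold higher and 1 at least 1.5-fold lower, where 5.25% and 5.05% of 17549 genes were. Under median centring in place of the intensity-dependent loess fit, Aqp2 and Aqp3 dropped to 0.34 and 0.19 and 2 of the 6 were past 1.5-fold, while Aqp1 and Aqp6 were at -2.30 and 0.97.

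The wild-type pools were compared in both dyes, each against its own scale, with 1 array per pool and no test. Aqp1 was 4.57-fold higher in pool 2 than in pool 1 in Cy5 and 2.81-fold higher in Cy3 of the self arrays. The Cy3 reading of pool 2 on KO_vs_WT replicate 2 gave 2.71-fold, in the same direction. These 3 readings are not independent. Both Cy3 values use the same pool 1 reading, and the dyes of a self array share spots and RNA. Aqp1 had Cy3 levels of 6.84 in pool 1 and 8.33 and 8.28 in pool 2. In Cy5, 5.98% of genes were at least 1.5-fold higher in pool 2, 7.29% at least 1.5-fold lower, and 0.592% differed by more than Aqp1.

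Aqp6 was lower in pool 2, at 0.579 of pool 1 in Cy5 and 0.742 and 0.744 in Cy3. Aqp3 was at 0.878 in Cy5 and 0.824 and 0.827 in Cy3. Aqp2 was at 0.740 of pool 1 in Cy5 and at 0.921 and 0.982 in Cy3, where it read 10.39 in pool 1 and 10.27 and 10.37 in pool 2. Aqp4 and Avpr2 differed by 0.12 or less on the log2 scale in all 3 readings of the probe that stands for the gene. The repeated Cy3 readings of pool 2 differed from each other by at most 0.10 in these 6 probes, with Aqp2 at 0.093 and Aqp1 at -0.051.

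**Figure D3:**
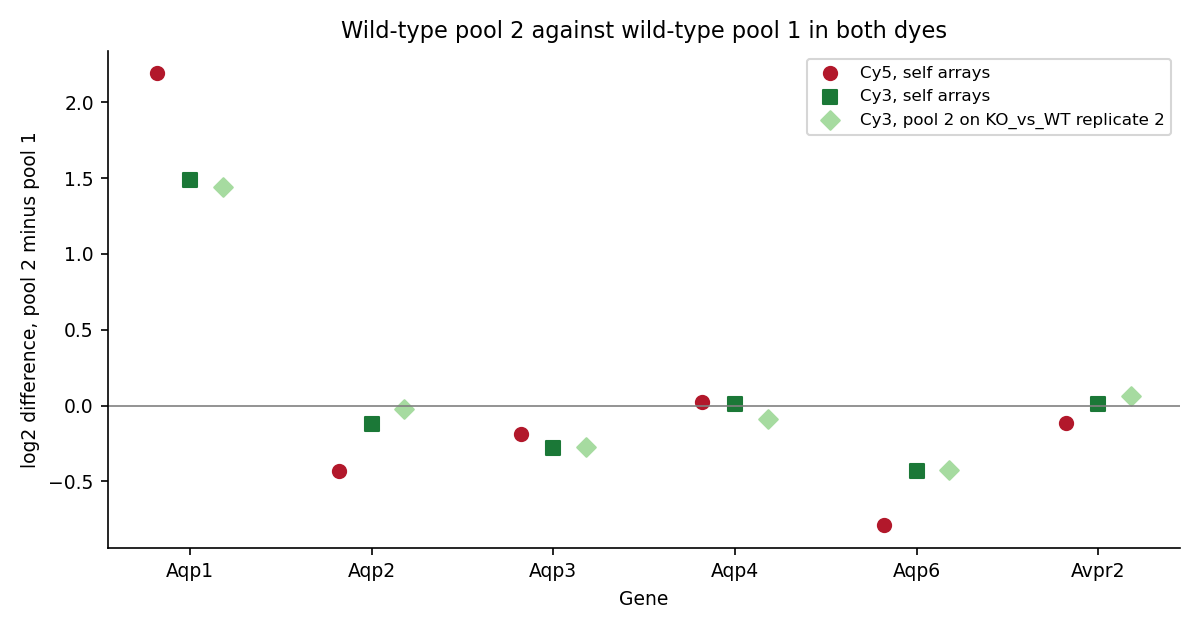
Difference of wild-type pool 2 from wild-type pool 1 on the log2 scale for the 6 genes, in Cy5 of the self arrays, Cy3 of the self arrays, and Cy3 with pool 2 read on KO_vs_WT replicate 2. Aqp1 is higher in pool 2 in each of the 3 readings, at 2.19, 1.49 and 1.44, and Aqp6 is lower, at -0.79, -0.43 and -0.43.

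Markers of other nephron segments had the pattern of Aqp1. All 9 measured proximal tubule genes of 15 listed lay below each pool on each knockout array, where 17.7% of all genes did. The median of the 9 was -0.44 against pool 1 and -2.81 against pool 2. Slc34a1, the phosphate transporter of that segment, read 8.41 and 7.75 in knockout, 9.11 in pool 1 and 12.29 in pool 2. The summed Cy5 level of the 9 genes was 2478 to 3617 in knockout, 5005 in pool 1 and 39625 in pool 2. All 4 measured loop and distal genes of 6 stood lower too, with Umod, which encodes uromodulin, at -1.41 and Slc12a3, the thiazide-sensitive transporter, at -0.48, and their summed level was 1496 to 1626 in knockout, 1918 in pool 1 and 7346 in pool 2. The part of these cells in the Aqp1 values was not tested.

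Endothelial and red cell markers were listed for the other usual sites of Aqp1. The 8 measured endothelial genes of 12 summed to 1434 to 1717 in knockout, 1995 in pool 1 and 1570 in pool 2, with Kdr at -0.24 and Plvap at -0.20, and the defining markers Pecam1 and Cdh5 were well above background in Cy5 on at most 2 and 1 of the 4 arrays. The 3 measured erythroid genes of 8 summed to 7200 to 9517 in knockout, 10929.5 in pool 1 and 3989 in pool 2, with Hba-a1 at 0.34 and Klf1 at 0.049. Most of that sum was Hba-a1, a globin gene, and without it, an alternative chosen after seeing the data, the sums were 354 to 411 in knockout, 457 in pool 1 and 297 in pool 2. Klf1, a red cell transcription factor, was itself highest in pool 2, at 6.65 against 6.36 in pool 1 and 6.61 and 6.50 in knockout. It was well above background in Cy5 on only 2 of the 4 arrays, so this order carries little weight. The red cell marker Ermap was well above background in Cy5 on none of the 4 arrays. The part of endothelial and red cells in the Aqp1 values was not tested either.

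Principal cell markers other than the members lay mostly, but not all, in the direction of Aqp2 and Aqp3. Of 9 listed, 8 were measured. On both knockout arrays 5 stood higher and 1 lower, where 21.9% and 17.7% of all genes did. The list median was 0.48, with 0.37 against pool 1 and 0.57 against pool 2. Sgk1, the aldosterone-induced kinase, stood at 1.32 ± 0.18 and Fxyd4, a modulator of the sodium pump, at 0.63 ± 0.19 (SE; limma adjusted p = 0.806 for each). Kcnj1, a potassium channel gene also active in the thick ascending limb, lay the other way, at 8.85 and 8.65 in knockout, 8.93 in pool 1 and 10.84 in pool 2, Kcnj10 stood at -0.071 and Hsd11b2 at 0.098, each with overlap, and these 3 were named after their values were seen. The summed level was 12185 to 12917 in knockout, 9328 in pool 1 and 8637 in pool 2. Fxyd4 made up most of the knockout sums, at 12.75 and 12.77 in knockout and 12.36 and 11.89 in pools 1 and 2. Sums without it were not taken. Their part in the Aqp2 and Aqp3 values was not tested.

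Intercalated cell markers, listed for Aqp6, had a median of -4.3e-04 over 12 measured genes of 13. Without overlap, 2 stood higher and 1 lower, where 21.9% and 17.7% of all genes did. Rhcg, an ammonia transporter found in both cell types of the duct, stood at 0.88 and Dmrt2, a transcription factor, at 0.45. The summed level was 9711 to 10498.5 in knockout, 8590 in pool 1 and 6340 in pool 2. Rhcg made up most of the knockout sums, and without it, an alternative chosen after seeing the data, the other 11 genes summed to 4082 to 4439 in knockout, 4796 in pool 1 and 3699 in pool 2, with pool 1 the highest. Atp6v1b1, a proton pump subunit gene named after its values were seen, stood at -0.63, and -1.22 against pool 2. Foxi1, the transcription factor that defines these cells, read 7.15 and 6.91 in knockout and 7.06 and 7.10 in wild type.

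Other lists gave the following medians. Ureteric tip genes had -0.51 over 8, with Etv5 at -0.47 and Slco4c1 at -0.55. Ureteric lineage genes had 0.12 over 9, with Wnt7b at 0.44 and Calb1 at -0.57. Urothelial genes had -0.82 over 7, with Upk3a at -1.46 and Upk3b at -0.49. Stromal genes had 0.057 over 8, with Pdgfrb at -0.26 and Dcn at 0.21, leukocyte genes -0.079 over 6, with C1qa at -0.21 and Tyrobp at -0.13, and nephron progenitor genes -0.049 over 3, with Cited1 at -0.28 and Osr1 at 0.063.

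**Figure D4:**
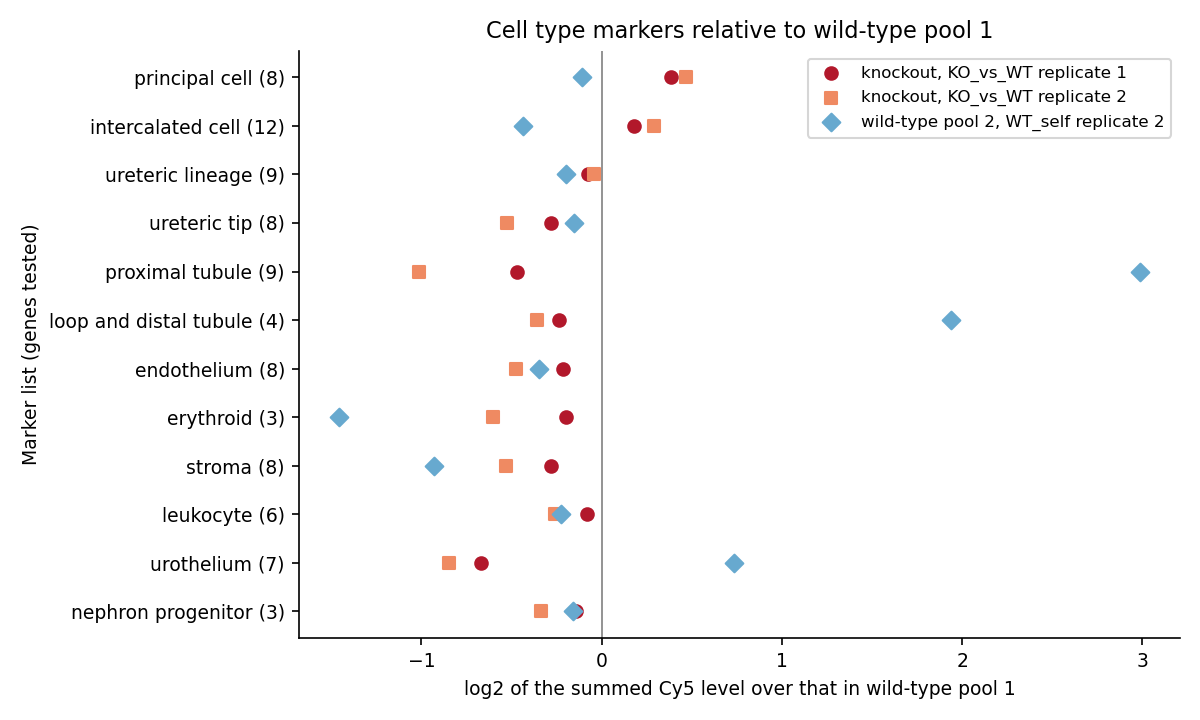
Summed Cy5 level of each cell type marker list on the knockout arrays and in wild-type pool 2, as the log2 ratio to wild-type pool 1, with the number of genes tested in brackets. The proximal tubule list stands farthest from 0, with pool 2 at 39625 against 5005 in pool 1. The principal cell list is higher on both knockout arrays, where Fxyd4 makes up most of its sum.

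The genes around vasopressin and aquaporin 2 were described from lists chosen by function, and 0 of them passed over all genes tested. Of 7 other aquaporin genes 2 were measured. Aqp5, the secretory gland channel encoded beside Aqp2 and Aqp6, read 8.09 and 8.61 in knockout and 7.45 and 7.28 in wild type, a difference of 0.99 ± 0.21 (SE; limma unadjusted p = 0.00555, adjusted p = 0.806). On the shared array it was at 1.10. Aqp5 lay on the side of its neighbours Aqp2 and Aqp6 in both comparisons, which share Cy5 readings. The Aqp2 sign with processed signals, given above, was the exception. Aqp11, an intracellular channel of the proximal tubule, read 7.63 and 7.94 in knockout, 7.63 in pool 1 and 8.85 in pool 2, a pattern across pools in the direction of Aqp1. Mip, Aqp7, Aqp8, Aqp9 and Aqp12 were well above background in Cy5 on at most 1 array.

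The signalling chain from receptor to protein kinase A had a median of -0.0067 over 14 measured genes of 18. Of the 14, 1 stood higher and 2 lower without overlap, where 21.9% and 17.7% of all genes did. Crem, a cyclic AMP-responsive transcription factor, stood at 0.22 by its brightest probe and between -0.055 and 0.074 by its 4 others. Pde4b, a cyclic AMP phosphodiesterase, stood at -0.18 and 0.012 by its other probe, Prkacb, a catalytic subunit of protein kinase A, at -0.21 and -8.2e-04, and Akap7, an anchor of that kinase, at -0.14. Adcy6, an adenylyl cyclase of the vasopressin response, was singled out after its values were seen, because knockout lay between the pools. It read 10.29 and 10.23 in knockout, 10.85 in pool 1 and 9.45 in pool 2. Avpr1a, the other vasopressin receptor measured, read 7.03 and 7.07 in knockout and 7.04 and 7.07 in wild type.

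Genes of aquaporin 2 vesicle traffic had a median of 0.027 over 23 of 25. Of the 23, 7 stood higher and 2 lower without overlap, where 21.9% and 17.7% of all genes did, or 39.6% in all. Vamp2, the vesicle fusion protein of aquaporin 2 vesicles, stood at 0.44 ± 0.14 (SE; limma adjusted p = 0.806), and at 0.17 and 0.011 by its other probes. Stx4a, its partner in the target membrane, stood at 0.29 and 0.11 by its other probe, Arhgdib, a regulator of small GTPases, at 0.38, and Dctn4, a dynactin subunit, at 0.24.

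Transcription factors linked to Aqp2 or to the principal cell had a median of 0.27 over all 8, with 7 positive differences. Of the 8, 3 stood higher without overlap, where 21.9% of all genes did. The list median was 0.093 against pool 1 and 0.42 against pool 2. Elf3, an epithelial factor, stood at 0.53 ± 0.17 (SE; limma adjusted p = 0.806), and at 0.50 and 0.57 against pools 1 and 2. Nfat5, the tonicity-responsive factor, stood at 1.06 by its brightest probe and at 0.43 and 0.31 by the others, and lay mainly above pool 2, with 0.35 against pool 1 and 1.77 against pool 2. Tfcp2l1 and Gata3, factors of the collecting duct, stood at 0.21 and 0.35. The Gata3 groups overlapped, with 0.028 against pool 1 and 0.67 against pool 2.

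Signals that oppose vasopressin split in both directions, with 2 higher and 3 lower without overlap among 5 measured genes of 8. Over all genes, 21.9% stood higher and 17.7% lower in that way. Ptger1, a prostaglandin E2 receptor, read 7.25 and 7.05 in knockout and 7.70 and 7.56 in wild type, a difference of -0.48 ± 0.13 (SE; limma adjusted p = 0.806), and Ednrb, an endothelin receptor, stood at -0.40. Edn1, which encodes endothelin, stood at 0.38. It was well above background in Cy5 on 3 of the 4 arrays, so it met the filter through 1 genotype only. Its place among the 2 higher genes is limited by that. Adora1, an adenosine receptor, stood at 0.51, and at 0.10 and 0.45 by its other probes.

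Osmolyte and urea genes had a median of 0.12 over 7 of 7. Without overlap 3 stood higher and 1 lower, where 21.9% and 17.7% of all genes did. Slc14a2, which encodes the vasopressin-regulated urea transporter of the collecting duct, read 8.05 and 8.52 in knockout and 7.50 and 7.16 in wild type, a difference of 0.95 ± 0.22 (SE; limma unadjusted p = 0.00778, adjusted p = 0.806), with 0.60 and 0.20 by its other probes. Slc5a3, the myo-inositol transporter, stood at 0.32, Slc6a12, the betaine transporter, at -0.25, and Slc6a6, the taurine transporter, at 0.17 and -0.028 by its other probe.

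**Figure D5:**
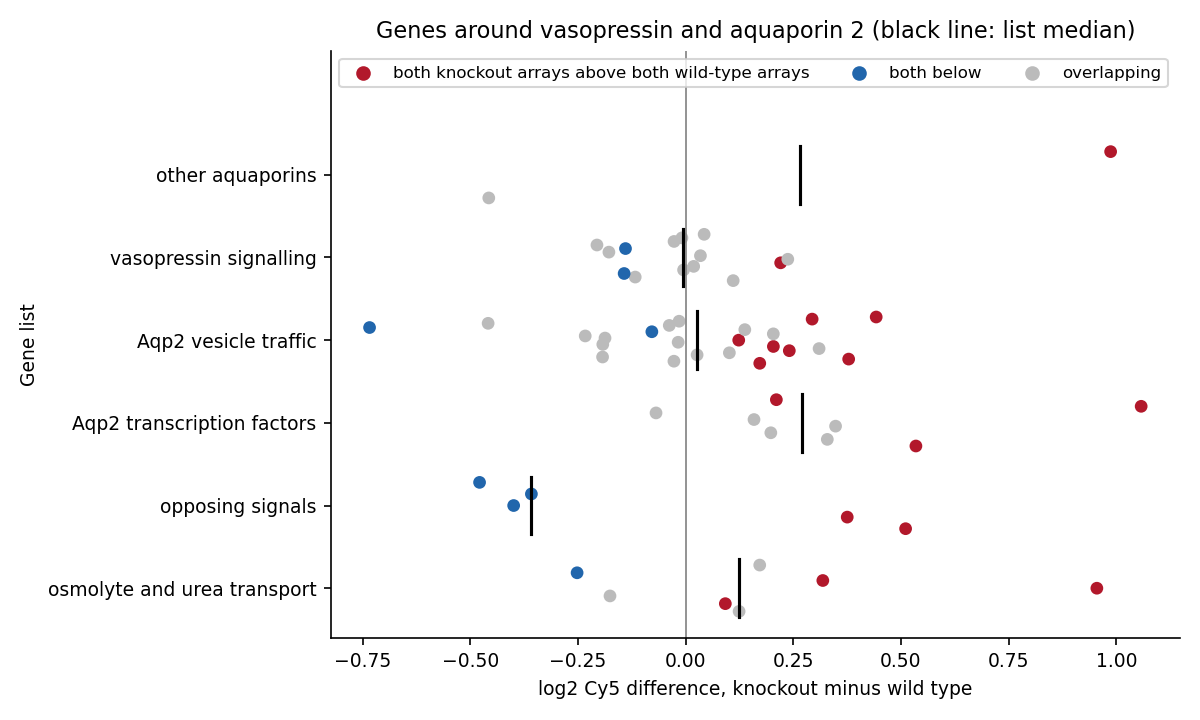
Difference between knockout and wild type in Cy5 on the log2 scale for each measured gene of 6 lists, with black lines at the list medians. Red points are genes above, and blue points genes below, each wild-type array in both knockouts. The medians lie between -0.36 for opposing signals and 0.27 for the transcription factors, and Nfat5 at 1.06 and Aqp5 at 0.99 are farthest to the right.

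The members were also set against all genes by the likeness of their levels over the 7 channels with signal, with the channels normalized together. These channels share 3 kinds of RNA and mix both dyes, so the correlations describe these channels and carry no test. Aqp2 and Aqp3 followed each other, with Pearson r = 0.931 over 7 channels, and Aqp1 and Aqp6 ran opposite, at -0.990. Among the genes most like Aqp2 were Atf3 (0.994) and Rab15 (0.991), and 266 of 8257 genes had r of at least 0.9 with it. Those most like Aqp3 were Parm1, Laptm4a and Niban1 (0.996 to 0.997, with 357 genes at 0.9 or more).

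Those most like Aqp1 were Cyp2j5, Folr1 and Gpx3 (0.999 each, with 1176 genes at 0.9 or more), which are active in the proximal tubule, and those most like Aqp6 were Dlg1, Zfp414 and Gclc (0.996 to 0.999, with 967 genes). Aqp4 and Avpr2 had few genes as alike, 16 and 24 at 0.9 or more, led by Cyp20a1, Cnot4 and Anapc7 (0.961 to 0.970) for Aqp4 and by Snrpd3, Snx17 and Ap1m1 (0.960 to 0.979) for Avpr2.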

How the data were processed

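Spots were read by the authors with Agilent Feature Extraction 10.7.3.1, per the file headers, from Agilent mouse two-colour arrays. The deposited intensity columns are median spot and local background signals in Cy3 and Cy5, and processed signals, already background- and dye-corrected by the software. The deposited log10 ratio is that of processed Cy5 over Cy3, per the file headers, and the deposited series table equals it in 45018 of 45018 spots on each array.

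Cy5 signals were corrected with normexp (offset 50) and quantile normalized. Control spots, outlier flags and a dark patch of 290 spots on WT_self replicate 1, which held no member, were left out. A probe entered where its Cy5 was well above background on the 2 arrays of either genotype, and the brightest stood for a gene. That left 16043 genes, of which 10470 had a symbol through RefSeq accessions (22951 of 41174 probes matched). Genotypes were compared with limma 3.58.1 in R 4.3.3, two-sided, with Benjamini-Hochberg adjustment over all genes and a threshold of 0.05. Summed list levels are sums of normalized signals on the linear scale, offset included. Ratios were loess normalized with control spots at weight 0. Fold changes understate changes of dim probes because of the offset. The number of arrays, 2 per genotype, limits the precision. The test was checked on simulated data. Members, lists and the choice of Cy5 were made with earlier results of these data known. The text names every member probe, and by unadjusted p up to 4 genes of each pathway list and 2 of each cell type list, and the 3 genes most like each member. A few genes that this rule selects are not reported here. Other alternatives were another background correction, scaling, offset, filter, probe rule, replicate block and each array left out.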

Additional observations from a re-analysis of the deposited data

How the results depend on the processing

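No member passed in the main setting or in the alternatives that kept both arrays of each genotype. Leaving out 1 array in turn gave 0 to 4484 genes and 0 to 4 members past the threshold, the highest without WT_self replicate 1. Values that turned sign were Aqp2 (-0.35) and Aqp3 (-0.70) with processed signals at the 75th percentile, and Aqp4 (0.37) and Avpr2 (0.21) under median centring, where the median of all genes was 0.33. The number of members whose groups did not overlap, 6 in the main setting, was 3 with processed signals at the 75th percentile and 1 for the log ratio over all 4 arrays, which includes the empty Cy3 channel. On the shared array, 6887 genes were past 1.5-fold with the deposited ratio, against 1807, and 2 members were under median centring, against 4. With the replicate number as a block, 0 genes passed. In this balanced design the block cannot change a difference, only its precision, and Aqp2 stayed at 0.74 (limma adjusted p = 0.885). Deviations of same-numbered arrays from their group means correlated at r = 0.0382 over genes, and the number was not taken as a pairing. Same-numbered arrays name the same wild-type pool, which the knockout arrays carried in Cy3 and not in Cy5. Aqp1 and Aqp6 kept their direction in 14 of 14 alternatives, and Aqp2, Aqp3, Aqp4 and Avpr2 in all but the 1 named. Many of these alternatives could not turn a sign. The filter, dark patch and replicate block left the member differences as they were, as did the mean of probes for genes with 1 probe. Leaving out 1 array could not turn a sign either, because the groups of each member did not overlap. Net Cy5 signal was lowest for Aqp6 in pool 2 (44 scanner units) and for Aqp1 on KO_vs_WT replicate 2 (57).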
